A study of Mus musculus with 4 samples.

Results

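Among the autosomal ATAC-seq peaks of bone-derived mesenchymal stem cells (MSCs), 1083 of 114745 were more accessible in both samples from old mice than in both samples from young mice by a wide margin, and these peaks are described here. They were chosen by their measured values: after each sample was divided by its median over autosomal peaks, the lower of both old values had to be at least 1.7 times the higher of both young values, and the mean deposited value of the old samples had to be at least 8. The difference between old and young is therefore how the peaks were selected, and no test of it is given. ATAC-seq marks open chromatin with a transposase that inserts adapters where DNA is accessible. The study compared MSCs of old mice (18 to 22 months) with MSCs of young mice (3 to 5 months), with 2 samples of each age, and all 4 samples were grown only at 2% O2 in αMEM medium with 10% FBS. According to the methods of the study, such cells came from hind-limb bone of wild-type male C57BL/6N mice and were sorted as CD45-/TER-119-/CD140a+/Sca-1+. Those methods cover mice of 3 to 5 months and do not describe old mice. The labels do not say whether samples of one age came from separate animals, and cells grown in culture may differ from those in the bone. The peaks were given as one common list of 117282 intervals on mm10, and 82209 autosomal peaks reached the old mean of 8 and could have entered the group.

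MSCs of bone can form osteoblasts, chondrocytes and adipocytes. Most accessible sites outside promoters are enhancers, short stretches that transcription factors bind and that can act on genes far away, so the nearest gene of a peak is a label for its position and not a known target. AP-1, a family of dimers of FOS and JUN proteins, binds the letters TGACTCA or TGAGTCA, which are each other's reverse complement. It is known for opening enhancers in fibroblast-like cells after growth and stress signals. RUNX factors, among them the bone regulator RUNX2, bind TGTGGT, and TEAD factors bind GGAATG.

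The AP-1 letters occurred in the central 300 bases of 297 of the 1083 peaks. Of the 15 peaks with the largest ratio, 4 held them, and their central 300 bases are shown because they carry the sequence feature in which the group differed most from other peaks. The sequences are the plus strand of RefSeq's GRCm38 genome, the assembly that mm10 names, in lower case with the AP-1 letters in capitals, and each is named for the nearest gene.
Vwc2, chr11:10977851-10978150: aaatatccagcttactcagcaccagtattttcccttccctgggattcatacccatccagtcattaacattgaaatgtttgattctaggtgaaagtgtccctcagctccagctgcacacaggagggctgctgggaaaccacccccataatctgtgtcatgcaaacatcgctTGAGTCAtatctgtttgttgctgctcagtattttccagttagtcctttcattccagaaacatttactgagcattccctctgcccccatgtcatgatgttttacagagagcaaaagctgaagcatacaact
Nrn1, chr13:36807951-36808250: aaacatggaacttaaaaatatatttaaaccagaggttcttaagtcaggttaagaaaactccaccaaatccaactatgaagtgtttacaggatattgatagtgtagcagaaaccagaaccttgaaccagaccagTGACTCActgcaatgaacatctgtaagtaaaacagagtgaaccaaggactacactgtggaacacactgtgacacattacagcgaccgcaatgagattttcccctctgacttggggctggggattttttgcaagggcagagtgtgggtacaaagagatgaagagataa
Lrrn3, chr12:42032851-42033150: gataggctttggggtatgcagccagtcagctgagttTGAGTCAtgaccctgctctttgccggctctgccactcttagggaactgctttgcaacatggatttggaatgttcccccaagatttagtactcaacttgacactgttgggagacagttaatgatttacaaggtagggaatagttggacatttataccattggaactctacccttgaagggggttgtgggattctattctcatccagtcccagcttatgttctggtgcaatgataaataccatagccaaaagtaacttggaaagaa
Mtrr, chr13:68258301-68258600: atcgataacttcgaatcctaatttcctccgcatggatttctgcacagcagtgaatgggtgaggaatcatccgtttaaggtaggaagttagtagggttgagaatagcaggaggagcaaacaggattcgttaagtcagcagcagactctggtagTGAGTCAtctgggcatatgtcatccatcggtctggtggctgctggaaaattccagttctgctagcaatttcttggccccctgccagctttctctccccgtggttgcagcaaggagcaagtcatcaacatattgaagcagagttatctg
The gap from the peak to the nearest start of a protein-coding transcript was 136 kb at Vwc2, which encodes a secreted BMP antagonist, 72.8 kb at Nrn1, which encodes the neuronal membrane protein neuritin, 546 kb at Lrrn3, which encodes a leucine-rich repeat protein of neurons, and 307 kb at Mtrr, which encodes methionine synthase reductase. None of these peaks lay in a protein-coding gene.

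Further peaks with AP-1 letters lay at loci that held several of the peaks or at genes of the lists described further on, and 51 bases around the first match are shown for 7 of them.
Syndig1, chr2:149932289-149932339: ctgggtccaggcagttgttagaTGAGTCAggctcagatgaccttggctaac
Sox9, chr11:112631556-112631606: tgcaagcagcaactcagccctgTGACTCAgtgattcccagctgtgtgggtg
Sfrp2, chr3:83740361-83740411: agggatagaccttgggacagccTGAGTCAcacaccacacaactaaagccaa
Col8a1, chr16:57760029-57760079: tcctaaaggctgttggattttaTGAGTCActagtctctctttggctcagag
Myod1, chr7:46337745-46337795: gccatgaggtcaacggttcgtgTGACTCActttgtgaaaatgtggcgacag
Inpp4b, chr8:81360582-81360632: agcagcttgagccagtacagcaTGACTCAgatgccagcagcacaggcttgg
B4galnt2, chr11:95894119-95894169: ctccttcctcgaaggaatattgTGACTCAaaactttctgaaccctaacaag
The Syndig1 and B4galnt2 sequences were intronic, the Inpp4b sequence lay in an intron of a longer Inpp4b transcript, 17.8 kb from the nearest start, and the others were intergenic.

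Over the 1083 peaks, the median deposited value was 10.8 in old replicate 1 and 14.7 in old replicate 2, against 6.02 in young replicate 1 and 6.46 in young replicate 2. These values, which the authors named RPKM, were whole multiples of 1 step per sample, and peak length does not enter them. They are read here as counts per 10000000 counts of the library, a scale that is assumed. Values ran from 3.85 to 181 in old replicate 1, from 6.45 to 197 in old replicate 2, from 0 to 90.6 in young replicate 1 and from 0.680 to 105 in young replicate 2. With that scale, the library totals calculated from the steps were 28600303 and 32559794 counts for old replicates 1 and 2. They were 28259470 and 29413803 counts for young replicates 1 and 2. The typical peak of the group therefore rested on few counts, with medians of 31 and 48 counts in the old samples and of 17 and 19 counts in the young ones. In 13 peaks at least 1 young sample had 3 counts or fewer, and 2 peaks had none in young replicate 1.

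The group was drawn from weaker peaks. The median of its mean old value was 12.9, and 734 of its peaks (67.8%) had an old mean under 16, while 51 had an old mean of 40 or more. The median over all autosomal peaks was 13.3, 15.97, 17.0 and 18.0 in old replicates 1 and 2 and young replicates 1 and 2. Expressed per autosomal median, the group stood at 0.816 and 0.923 in the old samples and at 0.354 and 0.358 in the young ones. In a bulk sample, more cells with an open site and more open copies per cell cannot be told apart. The group thus lay a little under the typical peak in old MSCs and well under it in young MSCs.

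The old values exceeded the young ones without overlap in 24673 autosomal peaks (21.5%), and 0.944% of autosomal peaks passed both the ratio and the level. The same rule turned around, with the young samples at least 1.7 times the old ones and a young mean of at least 8, took 1807 peaks (1.57%), which are called the mirrored set. The ratio of the lower old value to the higher young value had a median of 1.93, with quartiles of 1.79 and 2.18 and a maximum of 12.6. It was 2 or more at 447 peaks, 3 or more at 62 and 5 or more at 13. The median log2 ratio of the group means was 1.26, which is 2.40-fold. Between single samples, the medians of the log2 ratios were 1.16 and 1.17 for old replicate 1 against young replicates 1 and 2, and 1.29 and 1.33 for old replicate 2.

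The old samples did not contribute equally. Old replicate 2 was above old replicate 1 at 699 peaks of the group (64.5%), compared with 54.9% of all autosomal peaks with an old mean of at least 8. It was at least 1.5 times old replicate 1 at 119 peaks, and old replicate 1 was that far above old replicate 2 at 18. The young samples had a median ratio of 0.988 to each other. A rule with 1 sample fewer is looser, and 5018 peaks passed it without old replicate 1, among them 1068 of the 1083, while 2169 passed without old replicate 2, among them 932. It took 2996 peaks without young replicate 1 and 2676 without young replicate 2.

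The peaks at the threshold show how narrow it is. Just inside it lay a peak 318 kb from Sox9, with 60.5 and 65.1 in the old samples and 40.7 and 36.0 in the young ones, a peak 10.1 kb from Topaz1, with 12.2 and 16.3 against 9.20 and 9.52, and a peak in intron 2 of Ccbe1, with 12.2 and 14.7 against 9.20 and 7.48. Just outside lay peaks near Fcnb (13.6 and 21.5 against 10.3 and 7.14), Ehbp1 (11.5 and 12.3 against 6.37 and 8.16) and Klf5 (12.2 and 12.3 against 6.37 and 8.16). The values on both sides of the threshold were alike.

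Relative to protein-coding genes, most of the peaks were distal. Of the 1083 peaks, 474 (43.8%, 95% Wilson interval 40.8 to 46.7%) were intergenic, 424 (39.2%, 36.3 to 42.1%) were intronic, 140 (12.9%, 11.1 to 15.1%) overlapped an exon and 45 (4.16%, 3.12 to 5.51%) lay at most 1 kb from an annotated protein-coding start and were called promoter peaks. Intervals here and further on cover counting error only, and neighbouring peaks are not independent. Among the 82209 autosomal peaks with an old mean of at least 8, 18.0% were promoter peaks, 10.1% exonic, 32.2% intronic and 39.7% intergenic. The mirrored set was more distal still, with 2.49% at promoters, 4.54% exonic and 59.7% intergenic. Since promoters were assigned first, exonic shares were also taken outside promoters, where they were 13.5% in the group (11.5 to 15.7%), 12.3% in peaks with an old mean of at least 8 and 4.65% in the mirrored set.

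**Figure D1:**
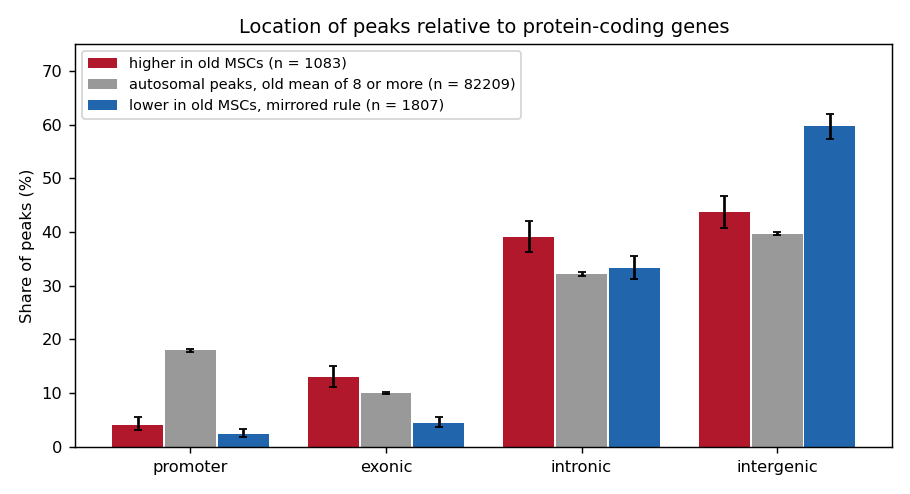
Share of peaks (%) at promoters, in exons, in introns and between genes, for the 1083 peaks higher in old MSCs (red), all autosomal peaks with an old mean of at least 8 (grey) and the mirrored set of 1807 peaks lower in old MSCs (blue). Bars are shares and error bars 95% Wilson intervals. Promoter peaks made up 4.16% of the red set and 18.0% of the grey set, and 59.7% of the blue set was intergenic.

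The low promoter share moved together with peak width and level. The peaks of the group had a median width of 900 bp, against 1600 bp for peaks with an old mean of at least 8, and 5.82% of them were wider than 2000 bp, against 34.7%. In a comparison limited to peaks of 700 to 1200 bp, which was added after the data were seen, 3.38% of 711 peaks of the group were promoter peaks (2.28 to 4.97%), against 4.31% of 26961 other peaks. Limited to an old mean of 8 to 16 as well, the shares were 3.20% of 562 peaks (2.04 to 5.01%) and 3.96% of 19699. At matched width and level the promoter share of the group was thus not distinguishable from that of other peaks.

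Gaps to genes were of the size seen at other peaks and shorter than in the mirrored set. The median gap to the nearest start of a protein-coding transcript was 26580 bp, compared with 21689 bp for peaks with an old mean of at least 8 and 71713 bp for the mirrored set. For 223 peaks (20.6%) the gap was over 100 kb. The median GC content was 47.2%, against 46.7% and 42.1% in those sets. A ratio of observed to expected CpG over 0.6, typical of CpG island promoters, occurred at 11 peaks (1.02%) and at 6.18% of peaks with an old mean of at least 8. Repeats masked in the genome covered more than 50% of the peak at 35 peaks (3.23%). That share was 1.33% of peaks with an old mean of at least 8, 2.27% of all autosomal peaks and 2.71% of the mirrored set. A noncoding gene was overlapped by 128 peaks, of which 61 overlapped a lincRNA and 34 an antisense transcript. The same share was not taken for other peaks, so these counts do not set the group apart. Of the group, 7 peaks (0.646%) abutted another peak of the list, whereas 505 (27.9%) of the mirrored set did. Among peaks with an old mean of at least 8 it was 1.54%, and among all autosomal peaks 3.73%.

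Of 15 motif families searched on both strands in the central 300 bases, AP-1 differed by the most percentage points between the group and the peaks that could have entered it. Its letters were in 27.4% of the group (24.9 to 30.2%), 14.5% of autosomal peaks with an old mean of at least 8, 16.1% of all autosomal peaks and 17.3% of the mirrored set. Without promoter peaks, the shares were 28.1%, 16.6% and, in the mirrored set, 17.5%. Among peaks of 700 to 1200 bp with an old mean of 8 to 16, they were 28.3% of 562 peaks of the group (24.7 to 32.2%) and 20.3% of 19699 others. The AP-1 share was therefore higher in the group also at matched width and level, by a smaller margin. With 1 sample left out of the rule, it was 23.9% and 21.3% without old replicates 1 and 2, and 21.2% and 24.6% without young replicates 1 and 2. A match gives letters in the genome and does not show that a factor was bound.

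Among peaks outside promoters whose old values lay above both young values, the AP-1 share was 16.3% where the ratio was 1 to 1.2, 18.1% at 1.2 to 1.4, 20.3% at 1.4 to 1.7, 27.2% at 1.7 to 2, 25.7% at 2 to 2.5 and 38.2% (30.3 to 46.7%, 131 peaks) at 2.5 or more. In the opposite direction the share stayed between 14.99% and 18.6% in all 6 bands, and where the groups overlapped it was 16.1%. With peaks of 700 to 1200 bp alone, the shares for peaks higher in old MSCs went from 23.4% in the lowest band to 39.2% (29.2 to 50.3%, 79 peaks) in the highest. Those for peaks lower in old MSCs lay between 15.2% and 22.4%. The bands from 1.7 upward overlap in their intervals, so no order among them can be read.

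**Figure D2:**
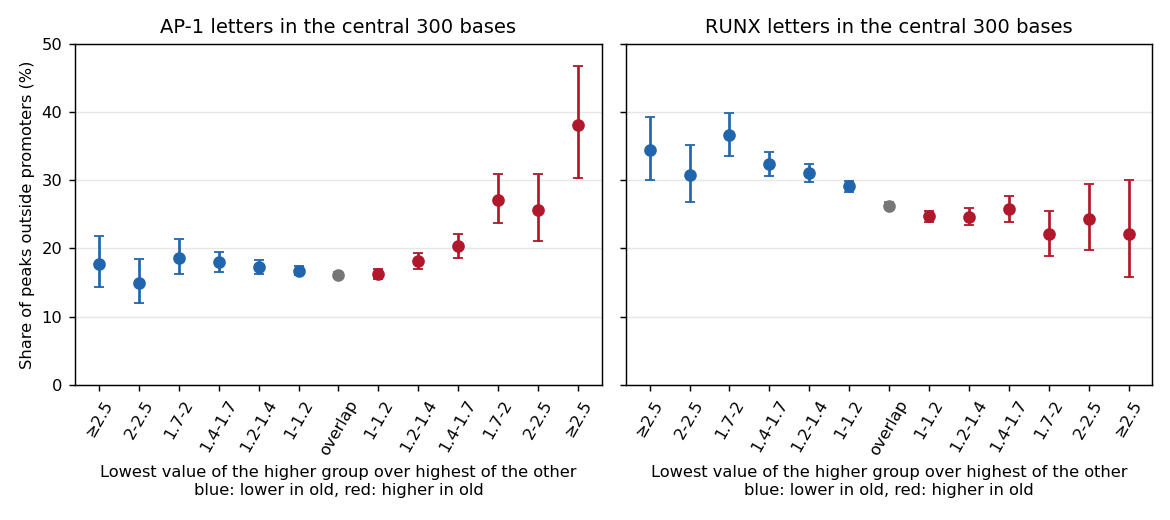
Share of peaks outside promoters (%) that hold the AP-1 letters (left) and the RUNX letters (right) in their central 300 bases, by the ratio of the lowest value of the higher group to the highest value of the other. Points are shares and bars 95% Wilson intervals, for peaks lower in old MSCs (blue), overlapping peaks (grey) and peaks higher in old MSCs (red). AP-1 reached 38.2% at the largest ratios in the red bands and stayed at 18.6% or less in the blue bands.

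No other family differed by as many points. RUNX letters were in 22.7% of the group (20.3 to 25.3%), 24.5% of peaks with an old mean of at least 8 and 34.3% of the mirrored set. TEAD letters were in 20.04%, 19.9% and 26.4% of these sets, the homeobox letters TAATTA in 4.62%, 6.50% and 10.6%, and C/EBP motifs in 2.03%, 2.42% and 5.26%. In these families the group lay near or below the peaks that could have entered it, and the mirrored set lay above both. The E-box CAGCTG was in 19.8% of the group (17.5 to 22.2%), against 17.4% and 13.8%, and the NFI letters TTGGCA were in 22.3% (19.9 to 24.8%), against 18.8% and 19.3%. Among peaks outside promoters of 700 to 1200 bp, the shares of the group and of peaks with an old mean of at least 8 were 18.9% and 18.9% for CAGCTG, 23.7% and 22.2% for NFI, and 23.4% and 29.1% for RUNX. NF-kB motifs were at 1.11%, 0.997% and 0.941%, forkhead letters at 4.16%, 3.94% and 4.48%, SOX letters at 3.51%, 3.81% and 6.42%, and the CTCF core at 3.60%, 5.23% and 1.66%. GATA letters were at 10.4%, 12.1% and 15.1%, the E-box CATCTG at 23.8%, 22.1% and 22.03%, PU.1 motifs at 1.85%, 2.10% and 2.16%, and ETS motifs at 0.185%, 0.747% and 0.111%. The 15 families were searched together, and no correction for their number was made.

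Of the 15 peaks with the largest ratio, 8 were intergenic, 3 exonic, 3 intronic and 1 a promoter peak. The peak nearest to Vwc2 (chr11:10977701-10978300) had 6.29 and 11.4 in the old samples and 0 and 0.680 in the young ones. Its ratio of 12.6 rests on 18 counts in old replicate 1 and 2 counts in young replicate 2, with an exact 95% counting interval from 3.01 to 112. A peak in intron 9 of Trpm6 (chr19:18794201-18794800), which encodes a magnesium channel with a kinase domain, had 6.64 and 10.1 against 1.06 and 0.680, and its ratio of 8 has a counting interval from 2.35 to 42.2. In both peaks the young values rested on 3 counts or fewer. Both peaks were picked for their large ratios, which the counting intervals do not take into account, so the lower limits are no support for the contrast.

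Klra4, a receptor gene of natural killer cells, held a pair of the 15 largest ratios. A peak over exon 2 (chr6:130065001-130065700) had 20.3 and 16.3 in the old samples and 1.77 and 1.36 in the young ones, and a peak over exon 3 (chr6:130062901-130063600) had 10.8 and 13.2 against 0.708 and 2.38. Klra4 belongs to a family of near-identical neighbouring genes, so the assignment of these reads to one copy is uncertain. The promoters of genes that define lymphoid and natural killer cells were mostly without a peak: 11 of 14 such genes, Ncr1 and Klrb1c among them, had no promoter peak, and the summed value of the other 3 per autosomal median was 6.18 and 4.52 in the old samples and 5.42 in both young samples.

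Cavin4, which encodes a muscle protein of caveolae, had a peak 20.1 kb from its start (chr4:48683601-48684700) with 23.8 and 25.8 against 3.89 and 2.72. A peak 783 kb from Zfhx4 (chr3:4434601-4435300), the gene of a large zinc finger homeobox factor, had 17.1 and 15.05 against 2.12 and 2.72. Over the last exon of Ptger4 (chr15:5234401-5235300), the EP4 receptor for prostaglandin E2, the values were 12.6 and 26.7 against 2.48 and 3.06. In these peaks no old value came near a young one. At Ptger4 the deposited values of the old samples lay farther apart than those of old replicate 1 and the young samples. The ratio of the lower old to the higher young value was 5.58 there.

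Of the remaining peaks among the 15, the Nrn1 peak had 8.04 and 10.4 in the old samples against 1.77 and 1.7 in the young ones. The Lrrn3 peak had 18.2 and 15.97 against 2.83 and 3.40, and the Mtrr peak had 18.5 and 17.5 against 3.89 and 2.38. A peak 8.33 kb from Lamb1 (chr12:31256401-31256900), the gene of the laminin beta-1 chain, had 7.34 and 9.21 against 1.42 and 2.04. All of them were weak in young MSCs, with values of at most 3.89.

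**Figure D3:**
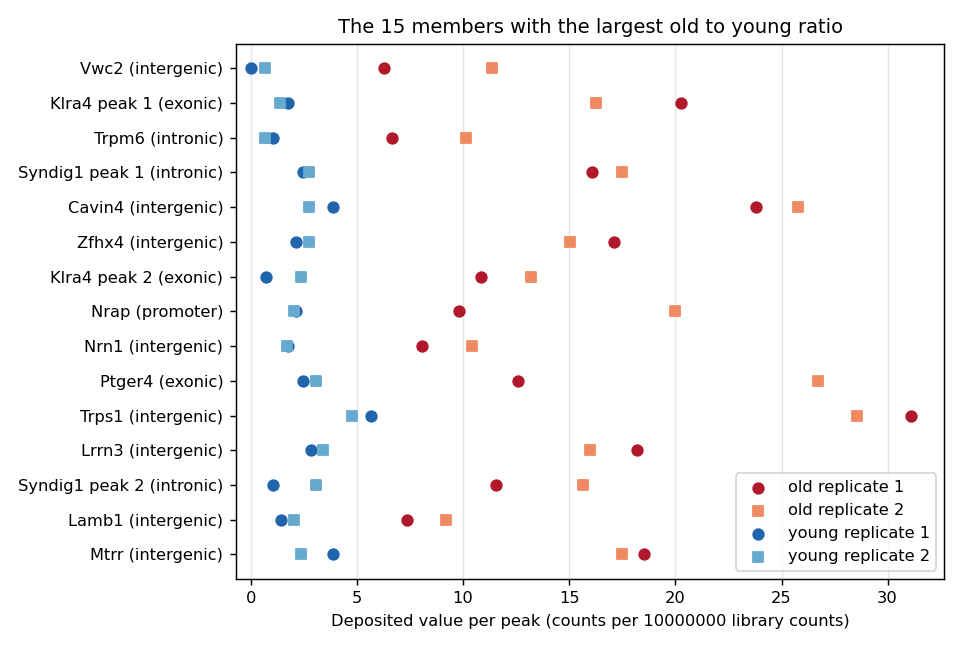
Deposited values (read as counts per 10000000 library counts) of the 15 peaks with the largest ratio, 1 row per peak named by its nearest gene and location. Each point is 1 sample (red and orange for old replicates 1 and 2, dark and light blue for young replicates 1 and 2). Every young value was at most 5.66, and the old values lay between 6.29 and 31.1.

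Syndig1, which encodes a membrane protein of AMPA receptor synapses, was the locus with the most peaks of the group. A stretch of 191 kb (chr2:149833701-150024700), bounded by peaks of the group, held 8 of them and 13 peaks in all. The old values lay above the young ones without overlap in all 13, compared with 21.5% of autosomal peaks. For the 8 of the group the rule fixed this, so 13 of 13 is no separate result. The gene body of 175 kb held 12 peaks, whose summed values were 180 and 213 in the old samples and 75.4 and 88.4 in the young ones. The strongest contrast was in intron 4 (chr2:149935401-149936100), with 16.1 and 17.5 against 2.48 and 2.72. Farther along the same intron, one peak (chr2:150000701-150002000) had 11.5 and 15.7 against 1.06 and 3.06, and another (chr2:149997301-149999000) had 19.2 and 28.3 against 6.02 and 6.80. The intron 4 peak whose AP-1 letters are shown above (chr2:149932001-149932900) had 16.4 and 23.0 against 6.37 and 6.46. The peak at the Syndig1 start itself was not in the group, with 30.1 and 31.3 against 22.3 and 14.6. Farther downstream, the next gene, Zfp120, was nearest to a pair of peaks of the group, at 195 kb from the Syndig1 start with 24.5 and 29.2 against 10.97 and 15.3, and at 279.7 kb with 8.04 and 9.21 against 4.95 and 5.78. A promoter peak at 307 kb had deposited values of 145 and 124 against 169 and 195. Divided by the autosomal median, they were 10.9 and 7.79 against 9.94 and 10.8, so old and young overlapped.

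**Figure D4:**
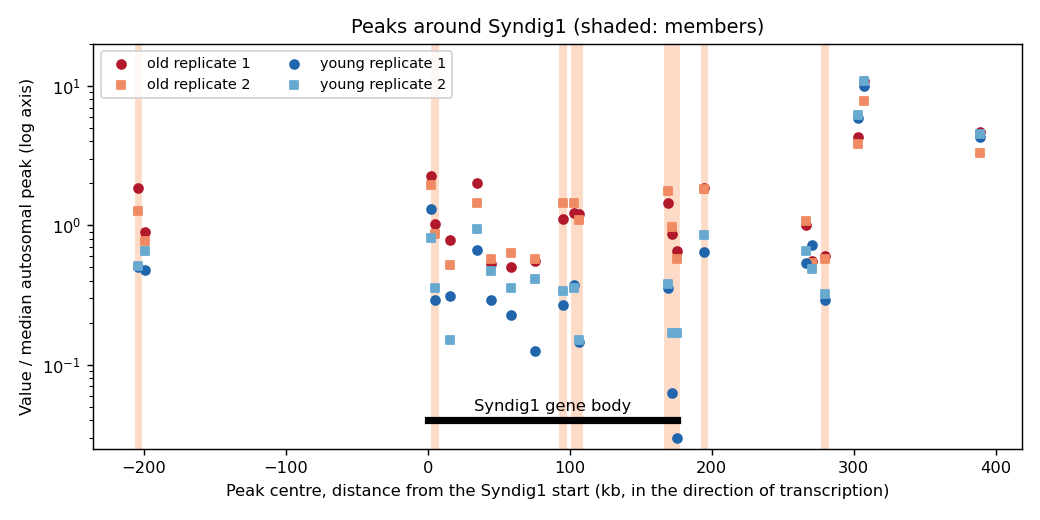
Peaks around Syndig1 by the distance of their centre from the gene's start (kb, in the direction of transcription) and their value divided by the sample's autosomal median (log axis, 0 drawn at 0.03), in 4 samples, with peaks of the group shaded. Over the gene body (black bar) the old samples lie above the young ones in all 12 peaks, at 6 of them by the rule. At the last 3 peaks on the right both old samples lie near or below the young ones.

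Regulators of cartilage held 12 of the peaks. Of 14 genes on a list of chondrocyte genes, 3 held these 12, which is 5.33% of the 225 peaks with an old mean of at least 8 assigned to the list, against 1.32% over all such peaks. The mirrored set had 4 peaks at the list, which is 1.18% of all 340 peaks assigned to it, against 1.57% of all autosomal peaks. The genes were Sox9, the master regulator of chondrocyte fate, Sox6, its partner, and Trps1, a GATA-type repressor of the growth plate, and no peak of the group lay at the matrix genes on the list.

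All 5 Sox9 peaks were intergenic, between 150 kb and 625 kb from the gene. The peak at 166 kb upstream (chr11:112615501-112616700) had 22.0 and 28.9 in the old samples and 12.4 and 11.2 in the young ones, and the one at 150 kb upstream (chr11:112631201-112632100) had 9.79 and 20.9 against 7.08 and 4.42. Sox9 lies in a wide gene-poor interval with 92 assigned peaks. Of these, 45 (48.9%, against 21.5% of all autosomal peaks) had old values above the young ones without overlap. The 5 of the group are among these 45 by the rule. The 4 Trps1 peaks included one 32.8 kb from its start (chr15:50923301-50926400) with 31.1 and 28.6 against 5.66 and 4.76, and one 214 kb away (chr15:51104501-51105100) with 6.29 and 11.7 against 0.708 and 2.38. Of 76 peaks assigned to Trps1, 19 (25%), the 4 of the group included, showed no overlap in this direction, a share near that of all autosomal peaks. Sox6 had 3 peaks, 1 of them in intron 2 (chr7:115889801-115890500) with 5.59 and 13.2 against 2.83 and 3.40. The ratios of these Trps1 peaks, 5.37 and 3.59, lay above every ratio at Sox9 and Sox6, where the highest were 2.27 and 2.23.

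Regulators of limb identity and fat were also present. On a list of 16 autosomal tendon and limb patterning genes, 4 held 7 peaks (2.99% of 234 peaks). Of these, Pitx1, a hindlimb identity factor, held 4. The mirrored set had 5 peaks at the list, which is 1.49% of all 335 peaks assigned to it, against 1.57% of all autosomal peaks. Of the 21 peaks assigned to Pitx1, 17 (81.0%, against 21.5% of all autosomal peaks) had old values above the young ones without overlap. By the rule, those 4 of Pitx1 are among the 17. Its strongest peak by level (chr13:55956701-55959300) had 38.1 and 56.5 against 19.1 and 19.04, its largest ratio was at chr13:55810901-55811600, with 5.94 and 10.1 against 1.77 and 1.7, and a peak at a start of Pitx1 (chr13:55835201-55836400) had 12.6 and 26.1 against 8.85 and 9.52. At the other genes, a peak 246 kb from Tbx18, a T-box factor of limb and vessel wall progenitors, had 16.4 and 25.8 against 9.55 and 11.6. The 14 adipogenic genes had 6 peaks at 3 genes (3.08% of 195 peaks, mirrored set 4, or 1.47% of all 273 peaks at these genes). Prdm16, a regulator of brown fat, held 4 of them, all in its introns 2 and 3, with old values of 9.21 to 21.8 and young values of 3.40 to 13.1. Zfp423, a regulator of preadipocytes, had a wide intron 1 peak (chr8:87931501-87935600) with 43.4 and 54.7 against 27.6 and 27.2.

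Lists of bone formation and of signalling genes held between 0 and 2 peaks each, to be read against the 1.32% of all peaks with an old mean of at least 8. On the list of 19 autosomal osteoblast and osteocyte genes, the only peak lay 19.8 kb from Alpl (chr4:137816201-137816800), the gene of the alkaline phosphatase of mineralizing osteoblasts, with 9.79 and 11.1 against 4.95 and 3.06, which is 0.662% of the 151 peaks of the list. Of 26 Wnt pathway genes, Sfrp2, which encodes a secreted Wnt modulator, had the single peak (25 kb away, 34.6 and 45.5 against 23.4 and 23.5). The mirrored set had 8 peaks at this list, 2.05% of all 390 peaks assigned to it, against 1.57% of all autosomal peaks. TGF-beta and BMP pathway genes had 2 of 393 peaks, collagen and matrix genes 1 of 369, at Col8a1 (9.44 and 10.7 against 6.02 and 4.76), and proteases and their inhibitors 0 of 110. Cell cycle inhibitors and senescence genes had 0 of 99, and the genes of AP-1 and TEAD factors themselves 0 of 147.

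Inflammatory and interferon genes gave single peaks. Among 24 inflammatory genes, Il33, an alarmin cytokine, had a promoter peak (chr19:29946101-29946900) with 8.39 and 12.6 against 3.18 and 5.10. A peak 3.29 kb from Icam1, an adhesion molecule for leukocytes, had 18.5 and 24.3 against 12.4 and 13.3, and one 17.9 kb from Tnfrsf11b, which encodes the osteoclast inhibitor osteoprotegerin, had 6.99 and 11.1 against 4.95 and 4.08. These 3 peaks are 1.90% of the 158 peaks of the list. Interferon genes had 2 of 29 peaks (6.90%), in Irf8 (10.1 and 13.5 against 6.72 and 5.78) and Usp18 (11.5 and 11.7 against 3.54 and 7.14).

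The lists of neural genes were nearest to few peaks of the group. They leave out Syndig1 and Ntrk3, with 7 and 5 assigned peaks of the group. They also leave out Nrn1 and Lrrn3, whose peaks are among the 15 with the largest ratio. Lists of neural cell adhesion and synapse genes and of axon guidance genes each held 2 peaks of the group (0.766% of 261 and 0.464% of 431), at Grik2, Cdh13, Efnb2 and Sema5a, against 1.32% over all such peaks. As a share of all peaks assigned to these lists, the group took 0.441% of 454 and 0.285% of 702 (0.944% of all autosomal peaks), and the mirrored set, with 22 and 21 peaks, took 4.85% and 2.99% (1.57% of all autosomal peaks). The lists give nearest genes only, and a list with many long genes has more peaks, so shares of peaks rather than counts are comparable between lists.

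**Figure D5:**
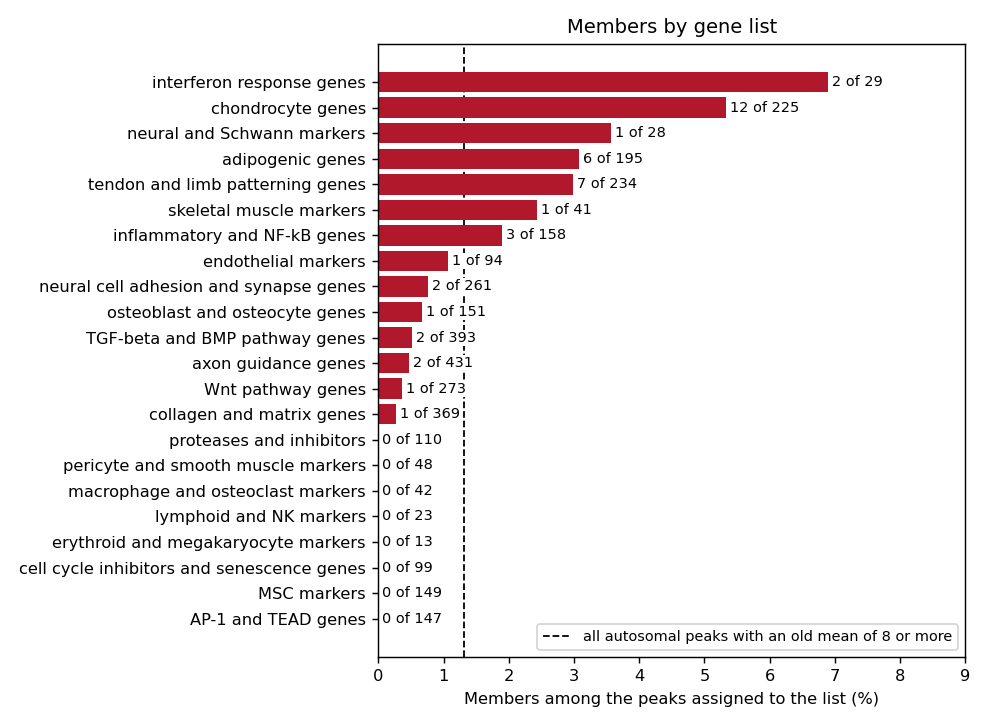
Peaks of the group as a share (%) of the peaks with an old mean of at least 8 that were assigned to each of 14 gene lists and 8 lists of cell type markers, with the counts beside the bars and the share over all such peaks (1.32%) as a dashed line. Chondrocyte genes had 12 of 225 peaks, and 8 lists had none.

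Among other genes with at least 3 peaks, Ntrk3, a receptor tyrosine kinase of neurons, had 5. The highest ratio there was in intron 12 (chr7:78347301-78348000), with 7.34 and 9.52 against 3.89 and 4.42. Inpp4b, a lipid phosphatase gene, had 4, the strongest in intron 6 (chr8:81859701-81862000) with 38.1 and 43.3 against 18.8 and 20.7. Pik3ap1, an adaptor of phosphoinositide signalling, had 3 within 17.5 kb, with sums of 27.3 and 38.1 against 11.7 and 10.2. B4galnt2, a glycosyltransferase gene, also had 3, in all 3 of its peaks that reached the old mean of 8, with sums of 20.3 and 33.5 against 8.85 and 8.499. Chst1, Nmur2 and Sept9 had 3 each. The annotated readthrough gene Gm20388 held 7, but it spans 206 peaks and many other genes, and the starts nearest to its peaks were those of Zfpm1, Dpep1, Acsf3, Rhou, Rab4a and others. Of the 959 genes assigned, 867 held 1 peak each.

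Promoter peaks were few, and the 15 with the largest ratio included genes of muscle, nerve, epithelium and immunity. Nrap, which encodes an anchoring protein of striated muscle, had the largest ratio (chr19:56389801-56390400), with 9.79 and 19.96 in the old samples and 2.12 and 2.04 in the young ones. At Grik2, a kainate receptor gene, the values were 9.09 and 9.21 against 1.77 and 2.38. C4bp, which encodes a complement inhibitor, was the strongest of the 3 with 39.5 and 43.6 against 10.97 and 15.3. Evi2a had 8.74 and 14.1 against 2.83 and 3.74. At Eps8l1, Slc6a19, Ptk2b, Wfdc8, Plekha6, Krt8 and Cbs, old values lay between 5.59 and 31.0 and young values between 2.04 and 16.7. At Hoxd3, a limb patterning gene, they were 40.2 and 52.8 against 23.4 and 20.7. The Myo18a promoter peak had 5.24 in old replicate 1 and 21.8 in old replicate 2, against 2.48 and 3.06, and the Nipsnap1 peak had 18.5 and 38.1 against 10.6 and 8.84, so that in both most of the contrast came from old replicate 2.

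Few of the peaks were strong. The highest lay in Cog7 (chr7:121930601-121938100), 7500 bp wide over 3 of its exons, with 141 and 197 in the old samples and 90.6 and 105 in the young ones. Next was a peak 24.4 kb from Ly6c2 (chr15:75085301-75087300), with 181 and 144 against 82.5 and 80.6, of which 57.0% is masked repeat. It lies 87.3 kb from Ly6a, which encodes Sca-1, one of the proteins used to sort the cells. The promoter peak of Barx1, a homeobox gene of joints and stomach, was 6900 bp wide with 92.3 and 128 against 62.6 and 47.9. Il1rn, the interleukin-1 receptor antagonist gene, had a peak over its last exon (chr2:24350501-24356300) with 83.6 and 125 against 53.4 and 56.4. Further strong peaks lay 273 kb from Spry2 (74.8 and 91.2 against 41.8 in both), 130 kb from Sox4 (55.9 and 94.0 against 31.5 and 40.8), in intron 6 of 2900026A02Rik (68.9 and 95.2 against 50.6 and 52.7), at Fcamr (70.6 and 86.6 against 52.0 and 54.7), 52.4 kb from Polr3k (87.8 and 74.3 against 45.6 and 36.4) and 5.29 kb from Cyp3a57 (75.9 and 82.6 against 18.4 and 32.3). After division by the autosomal median, the group means of these 10 strong peaks differed by 1.76-fold (Fcamr) to 3.78-fold (near Cyp3a57).

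Peaks close to one of the group shifted in the same direction. The 381 other peaks with an old mean of at least 8 within 5 kb of a peak of the group had a median log2 ratio of old to young of 0.21. In 39.6% of them both old values were above both young values, against 23.7% of all autosomal peaks with an old mean of at least 8. Both old values were below both young values in 9.97% within 5 kb and in 29.3% beyond 1000 kb. The median log2 ratio was 0.14 at 5 to 20 kb, 0.09 at 20 to 100 kb, 0.03 at 100 to 1000 kb and -0.05 beyond. The share with both old values above both young values fell to 27.8%, 23.1% and 19.6% over the last 3 steps. Another peak of the group lay within 100 kb of 220 peaks (20.3%). The share was 31.9% in the mirrored set, but that set is larger (1807 peaks), so the shares cannot be compared. No such share was taken for sets of other peaks. Besides Syndig1, stretches with several peaks lay at Prdm16 and Arhgef16 (5 peaks in 171 kb), Sept9 and Sec14l1 (4 in 135 kb), and Pitx1 and Pcbd2 (3 in 79.9 kb).

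By chromosome, the group took between 0.921% (chromosome 12) and 1.69% (chromosome 19) of the peaks with an old mean of at least 8. On chromosome 11 it took 1.66%, with 89 peaks, or 8.22% of the group against 6.24% of autosomal peaks. There old replicate 2 was above old replicate 1 at 77.5% of the peaks, and over all peaks of chromosome 11 the median log2 ratio to the young samples was 0.20 in old replicate 2 and -0.03 in old replicate 1. Whether this offset of old replicate 2 carried peaks of chromosome 11 over the threshold was not tested.

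The identity of the cells was checked at the promoters of marker genes. All 12 MSC markers had promoter peaks, with summed values per autosomal median of 151 and 168 in the old samples and 154 and 151 in the young ones, and none of these peaks was in the group. Of 14 macrophage and osteoclast markers, 9 had promoter peaks, with sums of 39.8 and 57.8 in the old samples and 50.7 and 46.6 in the young ones. The defining genes Ptprc, Adgre1, Itgam, Tyrobp and Mrc1 had none. At 4 of the 9 (Lyz2, Cd14, Fcgr3 and Dcstamp) both old values were above both young values, against 21.5% of autosomal peaks. At the other markers with a promoter peak the old and young values overlapped. No promoter of the 8 marker lists was in the group. Single distal peaks of the group lay nearest to the endothelial gene Emcn (9.44 and 11.7 against 5.66 and 5.44), the muscle gene Myod1 (16.1 and 21.5 against 10.3 and 11.2) and the neural gene Rbfox3. The promoter sums of these lists were 16.4 and 15.8 in the old samples against 18.5 and 17.4 in the young ones for endothelial markers, with both old sums lower, 8.47 and 6.46 against 8.71 and 8.32 for skeletal muscle markers, where old replicate 2 was the lowest, and 20.9 and 18.8 against 19.3 and 16 for neural and Schwann markers.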

How the data were processed

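ATAC-seq values of 2 old and 2 young samples of bone MSCs at 2% O2 were used. The deposited values are a score per peak and sample. The authors named them RPKM, but all were whole multiples of 1 step per sample (tolerance 0.001 of a step) whatever the width of the peak. They are therefore read as counts per library total, on an assumed scale of 10000000, and library totals were calculated from the steps. The submitters' processing notes name Bowtie2, Picard and mm10. The study's methods, written for cells grown at different oxygen levels, add peak calling with chromstaR (bins of 300 bp, steps of 100 bp). Such bins overlap and may hold the same read repeatedly, so totals are called counts and not reads, and counting intervals are lower limits of the error.

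Values were divided by each sample's autosomal median. The peaks, gene lists and motifs were chosen with earlier results of these data known, and the contrast that selected the peaks was not tested. Peaks were located with GENCODE vM21: promoter (within 1 kb of a protein-coding transcript start), exonic, intronic or intergenic, in that order. A peak was assigned to the protein-coding gene it overlapped or lay within 5 kb upstream of, and otherwise to the nearest start. Motif letters were searched in the central 300 bases of RefSeq's GRCm38, in which all peaks ended within their chromosomes.

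Named peaks were the 15 with the largest ratio, the 10 with the highest old mean, up to 15 promoter peaks, up to 30 on gene lists, the 3 widest, genes and 100 kb windows with at least 3, and the 3 on each side of the threshold. Alternatives were other scalings, ratios, levels, promoter definitions and leaving out each sample. The comparisons at matched width and level and those of the AP-1 share were added after the data were seen. The selection step was tested on simulated counts. Python 3.11.15, numpy 2.4.6, pandas 2.3.3, scipy 1.17.1 and matplotlib 3.10.9 were used. With 2 samples per group, values of single samples are given in place of a mean and SD. Peaks of chromosomes X, Y and M were not part of the group. One locus that the rule for named peaks took is not reported here.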

Additional observations from a re-analysis of the deposited data

Results flagged for a closer look

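Data outside the main comparison, the peaks of chromosome X, also held sites past the same ratio and level: 10 of 2521 (0.397%), against 0.944% of autosomal peaks. The strongest were in an intron of Egfl6, which encodes a secreted matrix protein of osteoblasts and adipose progenitors, with 36.4 and 55.3 in the old samples and 21.9 and 18.4 in the young ones, and at a start of Dmd, the dystrophin gene, with 22.4 and 33.5 against 13.8 and 13.9. A peak over an exon of Phex, an osteocyte gene of phosphate balance, had 9.79 and 15.05 against 3.89 and 6.12. There were 0 such peaks among 16 on Y and M. With 2 samples per group, a search for single outlying samples was not possible.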

How the results depend on the processing

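No paired analysis was possible because the labels link no old sample to a young one. The selected contrast is a description without a test. The number of peaks depended on the settings more than their location did. It was 1083 as reported, 324 with the values as deposited, 2223 and 447 with minimum ratios of 1.5 and 2, 349 with a minimum old mean of 16, 1763 with none, 4063 with a ratio of group means, and between 2169 and 5018 with 1 sample left out (5018 and 2169 without old replicates 1 and 2, 2996 and 2676 without young replicates 1 and 2). Without old replicate 1 the share that was intergenic was 39.2% (39.2 to 44.6% over the 4 samples left out), and without old replicate 2 only 932 of the 1083 peaks were still selected. The promoter share was 6.93% with promoters of 2 kb, 12.5% with the starts of all annotated genes, 5.73% with a minimum old mean of 16, and 4.04 to 5.44% with 1 sample left out. The share on chromosome 11 was 7.42 to 9.82% with 1 sample left out, lowest without old replicate 2. The AP-1 share was 31.2% with the values as deposited, 30.6% outside promoters at 700 to 1200 bp (23.4% of peaks of that width with an old mean of at least 8), 23.7% at a ratio of 1.5, 22.7% with a ratio of group means and 21.2 to 24.6% with 1 sample left out. The match by width was not repeated for the other settings, whose shares may lie close to those of other peaks of that width. Low counts limit single weak peaks, and the cause of these shifts was not tested beyond the looser selection that leaving out a sample brings.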
